A study of Mus musculus with 64 samples.

Results

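Whole blood was set against prefrontal cortex (PFC) within the same unstressed mice, to describe which transcripts each tissue held and which a blood sample shared with the brain. The members are 14 of the 64 libraries of the series: the 7 whole blood libraries and the 7 PFC libraries whose titles carry the same control animal codes, C1, C2 and C4 to C8. All 14 came from male BALB/c mice aged 28 weeks that stayed unstressed while other animals of the series were stressed for 9 weeks by the protocol called Unpredictable Chronic Mild Stress, or UCMS. No transgene, deletion or drug is named for either group. Both tissues were taken at ZT12.5 to ZT14.5, and each library began with 100 ng of RNA, from which ribosomal RNA was depleted, and kept the strand. Blood was trunk blood held in RNAprotect Animal Blood tubes and extracted with a kit for animal blood, whereas PFC was dissected, held in RNAlater and extracted with a kit for fibrous tissue. Tissue, tube, kit and the table into which each tissue was normalized differ together and cannot be told apart. In both tissues, fewer cells of a type and less RNA per cell cannot be told apart either.

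Mouse whole blood carries far more red cells than white cells, and part of its RNA lies in reticulocytes, the young red cells that have lost their nucleus and are still clearing their organelles. Platelets, which are fragments of megakaryocytes, bring a stored RNA pool of their own, and neutrophils, monocytes and lymphocytes bring the transcripts of nucleated immune cells. The prefrontal cortex holds glutamatergic projection neurons and GABAergic interneurons among astrocytes, oligodendrocytes, microglia and vessels, and the vessels carry some blood into any dissected piece. Blood is often sampled in stress research because the brain of a living subject cannot be.

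The deposited values are levels read as being on a log2 scale, and the table of each tissue was normalized on its own. The median level over the shared genes was 3.46 to 3.48 in the blood libraries and 4.66 to 4.74 in the PFC libraries, so a level in one tissue is not on the scale of a level in the other. Each gene was therefore ranked within its own library among the genes listed in both tables, from 0 for the lowest percentile to 100 for the highest, and the ranks were compared. A gene is said below to rank higher or lower in blood where its mean rank differed by at least 25 percentile points and the 7 blood ranks did not overlap the 7 PFC ranks. No p-value is given between the tissues. Read depth is unknown, because the files hold no counts, and a level may carry the length of its gene, because a correction for length is not stated.

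Some libraries stood apart. Blood library C2 had a median correlation of ranks with the other blood libraries of 0.670 across genes, against 0.792 to 0.832 for the other 6. PFC library C1 had 0.934, against 0.947 to 0.972 for the other 6 PFC libraries, and it was rich in blood transcripts. Animal C1 was the highest of 7 PFC libraries for 10 of 16 listed erythroid genes, 9 of 16 red cell membrane genes, 8 of 10 platelet genes, 5 of 5 neutrophil genes and 8 of 19 monocyte genes, while it was the highest for 11.7% of all PFC genes. It was also the highest for 3 of 9 T cell genes, 3 of 4 B cell genes and 0 of 1 natural killer gene. Every one of the 7 blood libraries correlated best with PFC library C1. Counts of list members without animal C1 are given for some lists, and always where they differ by more than 1.5 times. Leaving out any animal makes the no-overlap rule defined above easier to meet, so a rise in such a count is not particular to C1. Over all shared genes, 1233 ranked higher in blood with all 7 animals, 1290 without C1 and 1292 without C4.

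The blood table listed 8830 genes, the PFC table listed 15697 genes, and 8067 genes stood in both, which is 91.4% of the blood table and 51.4% of the PFC table. Of the 763 genes of the blood table alone, 526 were also absent from the hippocampus and hypothalamus tables of the series. Of the 7630 genes of the PFC table alone, 7080 were listed in both other brain regions. The rule that decided which genes a table lists is not given in the sources used here, so a gene missing from a table has no level there and was not taken as silent.

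Among the 8067 shared genes, 1233 (15.3%) ranked higher in blood and 1408 (17.5%) ranked lower, and 5426 met neither rule. Calls were thus 46.7% higher, but 26.2% when each gene was ranked among all genes of its own table (695 higher and 1957 lower). Among all genes of the own table, shared genes had a median rank of 47.4 in blood and 60.1 in PFC. The median rank difference of all shared genes was 0.563 percentile points on the shared ranks and -6.68 points on the ranks of the own table. Without animals C1 and C2 the counts were 1505 higher and 1580 lower, under a no-overlap rule that fewer animals make easier to meet. The median absolute difference in mean rank was 19.5 percentile points, while the median SD of a gene's rank among animals was 11.8 points in blood and 3.64 points in PFC. Ranks in blood were thus the less repeatable ones.

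**Figure D1:**
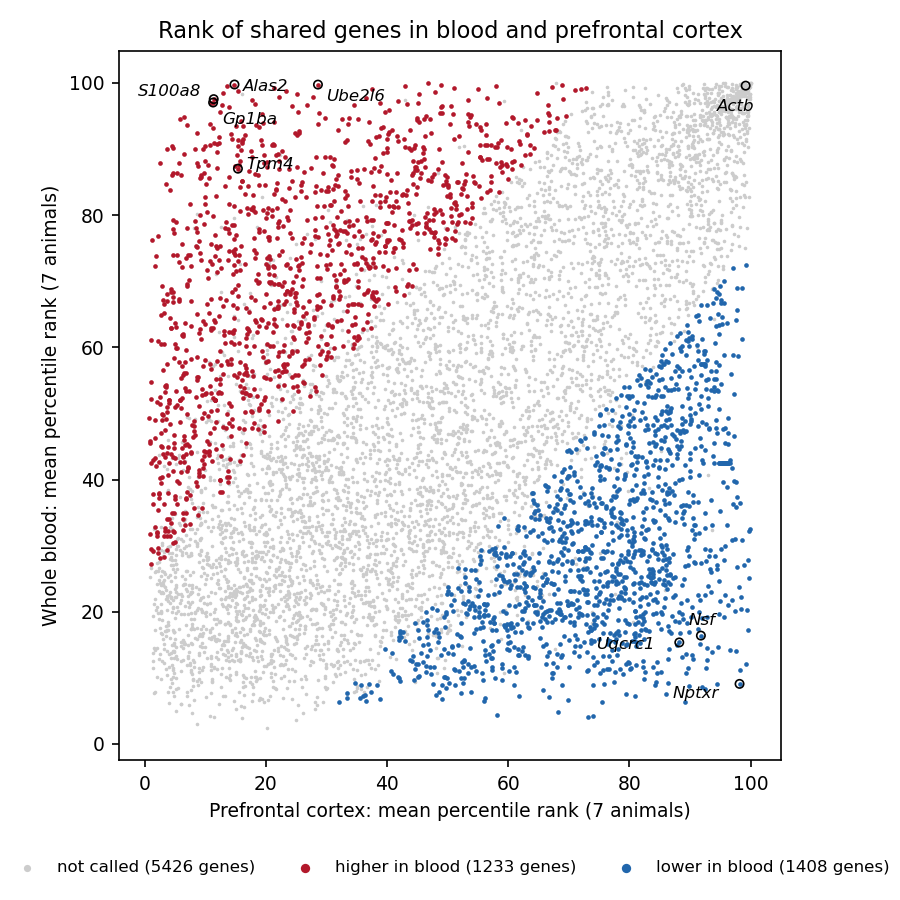
Mean percentile rank of each of the 8067 shared genes in whole blood (vertical axis) against prefrontal cortex (horizontal axis), 7 animals each; red marks the 1233 genes that ranked higher in blood and blue the 1408 that ranked lower. Circles mark named genes: Alas2, Gp1ba and S100a8 lie at the upper left, Actb at the upper right and Nptxr at the lower right.

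Globin and heme transcripts lay near the top of every blood library: the list's median rank was 98.6 to 99.1 over the 7 blood libraries, against 37.3 to 93.1 over the 7 PFC libraries. Of 21 erythroid globin and heme genes, 15 were in both tables, 2 in the blood table alone, 1 in the PFC table alone and 3 in neither. Of the 15, 6 ranked higher in blood and 0 lower, with a median rank difference of 24.0 points, beside 0.563 for all shared genes. Of all shared genes, 15.3% ranked higher and 17.5% lower. The alpha-globin gene Hba-a1 had the same level, 17.95, in all 7 blood libraries, and in PFC it ran from 7.54 through a median of 8.23 to 16.52. Sorted values are nearly the same in every library of a table, so a level follows a gene's position in its library. Equal blood levels thus do not show equal amounts of alpha-globin RNA. The PFC maximum was animal C1, and the other 6 PFC libraries reached at most 9.68. The rank difference of Hba-a1 was only 4.20 points, below the rule, because the gene was already at a mean rank of 95.8 in PFC, although its level centred on the library median was 9.71 higher in blood. Genes near the top of both tissues cannot meet a rule on ranks, and Hba-a1 and its near-identical copy Hba-a2 may share reads.

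The beta-globin gene Hbb-bs had levels of 14.73, 15.42 and 15.42 (lowest, median and highest) in blood, against 4.44, 5.37 and 14.57 in PFC. Its ranks overlapped through PFC library C1 alone: the rank difference was 32.0 points, and without animal C1 it was 37.3 points and met the rule. Alas2, the erythroid enzyme that starts heme synthesis, had levels of 11.42, 11.62 and 12.10 in blood, against 1.05, 2.34 and 10.99 in PFC. The second highest PFC library held Alas2 at 2.91. Alas2 ranked 85.0 ± 37.3 points higher in blood (SD over 7 animals), and 99.1 points higher without C1. Slc25a37, the mitochondrial iron importer mitoferrin, ranked 61.6 points higher, and Fech, which inserts iron into heme, ranked 48.1 points higher. Alad, the second enzyme of heme synthesis, had a rank difference of -18.7 points and met neither rule. By this rule, then, enzymes of the same pathway fell on both sides of the limit.

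Promoters of red cell and platelet genes are a textbook setting for GATA factors and, in erythroid genes, for CACCC boxes bound by KLF1. The windows below, from RefSeq on GRCm38.p6, run from 250 bases before to 50 bases after the annotated start, and capitals mark AGATAA on either strand (TTATCT on the other) and, in Hbb-bs, CCACACCC. They were chosen for holding these letters and belong to genes at the top of blood. Over all 27025 promoters of the table, 11.4% held AGATAA and 3.57% held CCACACCC on either strand.
Alas2, chrX:150547167-150547466, plus strand, match at position -86 from the start: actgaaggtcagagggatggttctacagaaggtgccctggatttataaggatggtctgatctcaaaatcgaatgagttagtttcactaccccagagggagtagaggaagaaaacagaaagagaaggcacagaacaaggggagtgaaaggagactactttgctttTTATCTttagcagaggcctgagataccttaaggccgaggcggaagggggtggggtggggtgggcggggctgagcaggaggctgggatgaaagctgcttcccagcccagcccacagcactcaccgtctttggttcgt
Hbb-bs, chr7:103827879-103828178, minus strand, AGATAA at position -210 and CCACACCC at -93: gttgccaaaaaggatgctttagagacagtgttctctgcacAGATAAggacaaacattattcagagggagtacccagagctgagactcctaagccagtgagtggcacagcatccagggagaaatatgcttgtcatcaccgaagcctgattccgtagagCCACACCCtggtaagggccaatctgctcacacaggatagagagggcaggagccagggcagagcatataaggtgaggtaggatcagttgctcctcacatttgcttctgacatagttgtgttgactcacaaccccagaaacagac
Pf4, chr5:90772185-90772484, plus strand, match at position 37: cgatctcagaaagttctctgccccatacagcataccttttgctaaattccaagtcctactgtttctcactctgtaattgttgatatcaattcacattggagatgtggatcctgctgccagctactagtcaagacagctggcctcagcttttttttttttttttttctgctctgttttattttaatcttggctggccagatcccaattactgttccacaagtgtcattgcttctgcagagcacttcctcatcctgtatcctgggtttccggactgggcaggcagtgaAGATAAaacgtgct
Gp5, chr16:30310732-30311031, minus strand, matches at positions -93 and -77: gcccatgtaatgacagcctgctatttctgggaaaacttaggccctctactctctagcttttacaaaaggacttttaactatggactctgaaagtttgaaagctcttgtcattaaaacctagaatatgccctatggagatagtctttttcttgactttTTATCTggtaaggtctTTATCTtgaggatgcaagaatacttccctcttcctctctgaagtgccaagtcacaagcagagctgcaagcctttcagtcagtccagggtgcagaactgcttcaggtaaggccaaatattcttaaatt
A match describes letters in the window and is not evidence of binding. The table held a promoter for 76.8% of the genes that ranked higher in blood and 71.6% of those that ranked lower, below the 80% needed, so a comparison of promoter letters between gene sets is void.

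The red cell membrane and precursor list was missing from the PFC table to a large part. Of its 30 genes, 16 were in both tables, 13 in the blood table alone, 0 in the PFC table alone and 1 in neither. Slc4a1, the anion exchanger band 3, was in the blood table alone at 6.24, 7.13 and 7.46. The erythroid factor Gata1 was in the blood table alone at 3.51, 4.11 and 4.59. Of the 16 shared genes, 4 ranked higher in blood and 2 lower, with a median of 25.7 points, beside 15.3% higher and 17.5% lower among all shared genes. The 4 were the membrane protein Stom (69.5), the water channel Aqp1 (67.3), protein 4.1 Epb41 (66.7) and the transferrin receptor Tfrc (46.2). The 2 lower ones were Add2 (-61.9), an adducin of the membrane skeleton, and Dmtn (-40.2), dematin. Tal1, a factor of early blood formation, differed by 64.9 points but overlapped through PFC library C1 (5.54, against at most 3.79 in the other 6), and without C1 it met the rule and 7 genes of the list ranked higher.

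Reticulocyte clearance genes were listed in both tissues throughout. All 20 of that list were shared, 5 ranked higher in blood and 1 lower, beside 15.3% and 17.5% of all shared genes, and the median difference was 19.9 points. Ube2l6, a ubiquitin-conjugating enzyme that also loads ISG15, had levels of 11.15, 11.56 and 11.76 in blood, against 3.10, 3.85 and 11.59 in PFC. The high PFC value was again C1, and the other 6 reached at most 4.12. Ube2l6 ranked 71.2 points higher, the ubiquitin ligase subunit Fbxo7 45.3, the autophagy kinase Ulk1 34.3, Bpgm 32.2 and the mitophagy receptor Bnip3l 26.4 points higher. Otub1, a deubiquitinase, ranked lower, at -54.0 points. Without animal C1, 7 of the 20 ranked higher.

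Platelet genes were split between the blood table alone and both tables. Of 24 genes, 10 were shared and 14 were in the blood table alone. Pf4, platelet factor 4, was in the blood table alone at 9.16, 9.62 and 9.95, Ppbp, a platelet chemokine precursor, at 8.58, 8.87 and 9.16, and the platelet beta-tubulin Tubb1 at 7.05, 7.44 and 7.63. Of the 10 shared genes, 6 ranked higher in blood and 0 lower, with a median of 56.5 points, beside 15.3% and 17.5% of all shared genes. Gp1ba, a subunit of the von Willebrand factor receptor, had levels of 7.37, 7.67 and 7.97 in blood, against 1.64, 2.90 and 5.34 in PFC. It ranked 86.2 ± 24.5 points higher (SD, 7 animals), and Gp5, a further subunit of that receptor, ranked 85.5 points higher. Thbs1 (68.5), thrombospondin, Vwf (64.1) and Gng11 (56.6) ranked higher too. Gp1bb differed by only 0.53 points, and Nrgn by 1.63 points; Nrgn encodes neurogranin, which is abundant in cortical neurons and also known from platelets. PFC library C1 had the highest PFC level of Gp1ba, and without it 7 of the 10 ranked higher.

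Neutrophil genes were mostly absent from the PFC table, and monocyte genes were mostly listed there. Of 26 neutrophil genes, 5 were shared, 12 were in the blood table alone and 9 in neither. Of the 5, 4 ranked higher in blood: S100a8 (85.8) and S100a9 (84.0), the calprotectin subunits, the growth factor receptor Csf3r (66.8) and Pglyrp1 (44.0). S100a8 had levels of 6.74, 7.38 and 8.24 in blood, against 0.17, 0.42 and 5.94 in PFC, where the value above 1.58 was C1. Of 25 monocyte genes, 15 were shared, 4 were in the blood table alone, 4 in the PFC table alone and 2 in neither. Of the 15, 7 ranked higher and 1 lower, with a median of 27.5 points. The shares of all shared genes were 15.3% higher and 17.5% lower. In the UCMS animals, 5 of the 15 ranked higher in blood and 1 lower, with a median of 7.89 points, and without animal C1 of the unstressed mice 7 ranked higher and 2 lower. Lyz2, lysozyme, ranked 75.7 points higher and F13a1, the A chain of clotting factor XIII, 75.3 points higher. The 1 lower gene was Cx3cr1 (-42.2), a chemokine receptor that monocytes share with microglia.

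Lymphocyte receptor genes stood almost wholly in the blood table. Of 24 T cell genes, 15 were in the blood table alone, with Cd3e at 3.58, 4.04 and 4.46, and 9 were shared. Of these 9, 2 ranked higher, Ets1 (51.0) and the T cell receptor constant gene Trbc2 (40.7), where 15.3% of all shared genes did. Of 23 B cell genes, 19 were in the blood table alone, 3 were shared and 1, Blnk, was in the PFC table alone. The immunoglobulin kappa constant gene Igkc was in the blood table alone at 8.15, 8.43 and 9.88. All 3 shared B cell genes ranked higher: Cd74 (81.8), the invariant chain of MHC class II, Ighm (72.2) and Fcer2a (25.6). Of 16 natural killer genes, 9 were in the blood table alone, 6 in neither and 1, Eomes, in both at a difference of -0.67 points. Proliferation genes were sparse: of 22, 9 were shared, 5 were in the blood table alone, 3 in the PFC table alone and 5 in neither. Of the 9, 1, Hmgb2 (45.9), ranked higher, beside 15.3% of all shared genes.

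Antigen presentation genes, and some interferon-stimulated genes, ranked higher in blood. Among all shared genes, 15.3% ranked higher. Of 21 MHC class I and II genes, 11 were shared, 8 were in the blood table alone and 2 in neither, and 9 of the 11 ranked higher, with a median of 56.4 points. H2-K1, a class I heavy chain, had levels of 4.89, 5.06 and 5.52 in blood, against 3.18, 3.41 and 4.26 in PFC, and ranked 77.0 points higher. Class I genes are near-identical in part and may share reads. Ciita, the master regulator of class II genes, ranked 70.7 points higher. Of 25 interferon-stimulated genes, 11 were shared, 8 were in the blood table alone, 2 in the PFC table alone and 4 in neither, and 5 ranked higher, including Isg15 (79.5), Ifit1 (64.9), Irf9 (44.0) and Ifih1 (27.3). Rsad2, the antiviral enzyme viperin, had levels of 7.59, 8.44 and 9.05 in blood, against 2.35, 2.91 and 10.07 in PFC. Its PFC maximum was C1 and the others reached at most 3.08, and it met the rule without C1 but not with all 7 animals. Without animal C1, 6 of the 11 interferon-stimulated genes ranked higher.

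Of 26 transcription factors of blood formation, 16 were shared, 6 were in the blood table alone and 4 in neither. Of the 16, 9 ranked higher in blood and 0 lower, with a median of 38.2 points, beside 15.3% and 17.5% of all shared genes. They included Lyl1 (65.3), Fli1 (61.9), Runx1 (57.9), Spi1 (49.96), the myeloid factor also called PU.1, and Gata2 (44.8). Runx1 had levels of 3.28, 3.87 and 4.44 in blood, against 2.65, 2.87 and 3.28 in PFC. Of 26 transcription factors of the brain, 5 were shared and 21 were in the PFC table alone, and 2 ranked lower in blood: Pou3f3 (-67.8) and Mef2c (-39.5).

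**Figure D2:**
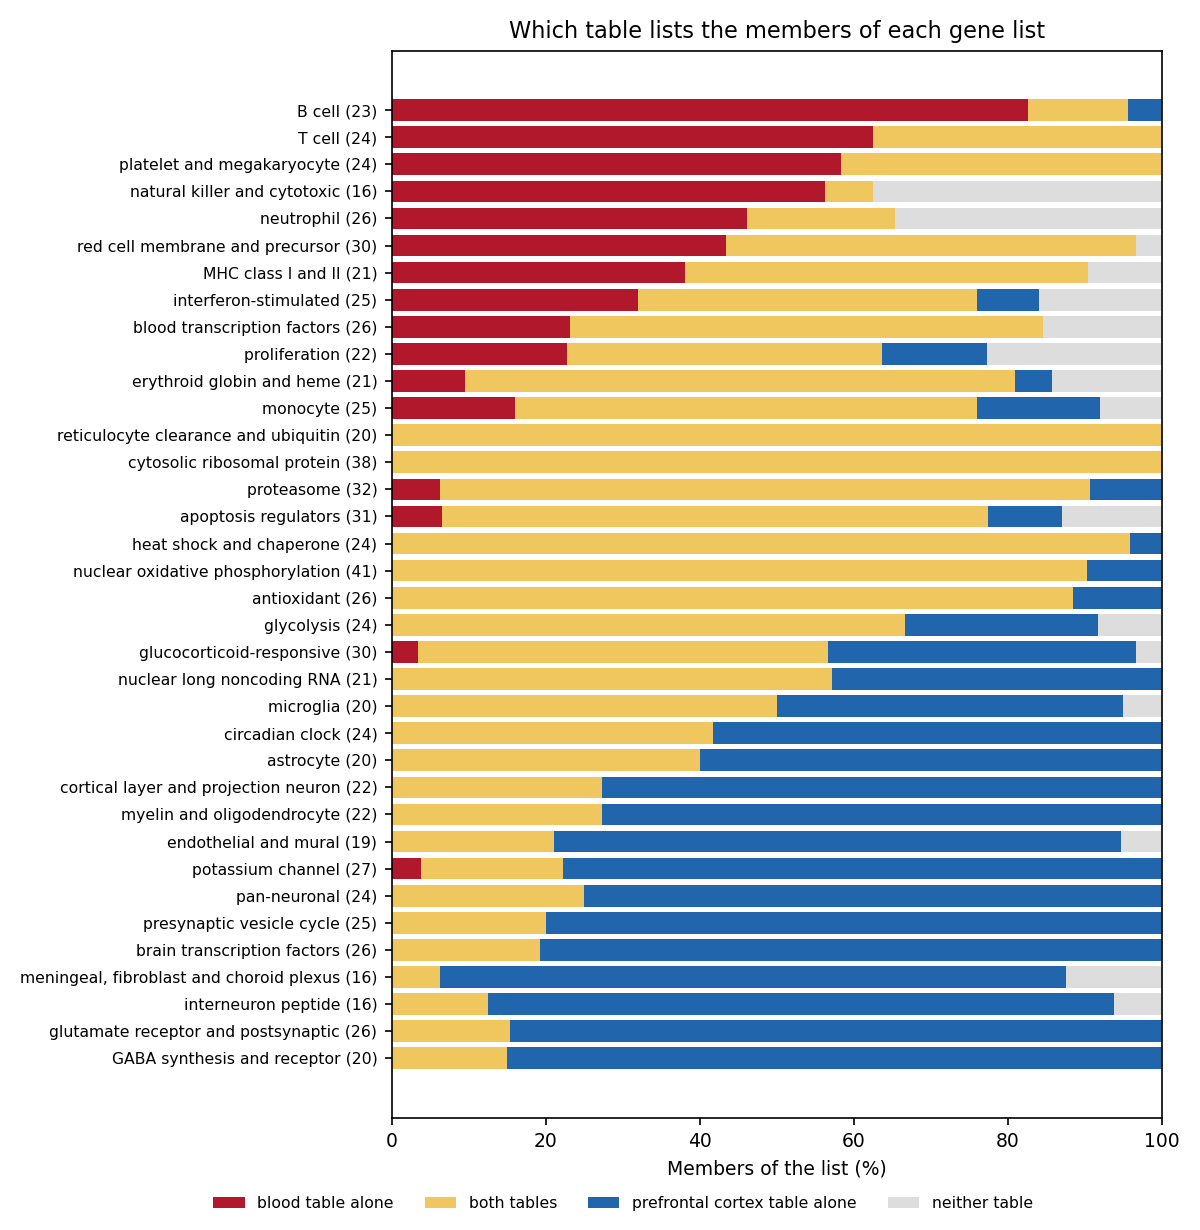
Share of the members of each of the 36 gene lists (horizontal axis, percent; list size in brackets) that the blood table alone, both tables, the prefrontal cortex table alone or neither table listed. B cell, T cell and platelet lists lie mostly in the blood table alone, receptor, synaptic and interneuron lists mostly in the prefrontal cortex table alone, and ribosomal protein and reticulocyte lists wholly in both.

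Neuronal genes were mostly not listed in blood. Of 24 pan-neuronal genes, 18 were in the PFC table alone, among them Map2 at 5.91, 6.04 and 6.09 and Rbfox3, which encodes NeuN, at 5.01, 5.65 and 5.93. The 6 shared ones had a median difference of -43.8 points, and 4 ranked lower in blood, beside 17.5% of all shared genes. Nsf, the ATPase that takes SNARE complexes apart, had levels of 1.999, 2.59 and 2.97 in blood, against 7.002, 7.38 and 7.55 in PFC, and stood at -75.4 ± 9.09 points (SD, 7 animals). Syt1, the calcium sensor of release, stood at -65.5, the SNARE protein Snap25 at -61.8 and Reln at -25.8 points. Snap25 was uneven in blood, where its ranks ran from 1.73 to 70.7.

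Synaptic and channel genes followed the same split. Among all shared genes, 17.5% ranked lower and 15.3% higher. Of 25 presynaptic genes, 20 were in the PFC table alone and 5 were shared. Of the 5, 2 ranked lower, Cplx2 (-67.9) and Syngr1 (-47.9), and 1 ranked higher, Syn3 (43.3). Timp3 lies inside an intron of Syn3, so reads of the pair may not be separable. Syp, synaptophysin, was in the PFC table alone at 8.12, 8.38 and 8.46, and so was Syn1, a vesicle-binding synapsin, at 6.43, 7.13 and 7.204. Of 26 glutamate receptor and postsynaptic genes, 22 were in the PFC table alone, including the receptor subunits Gria2 (7.08, 7.27 and 7.43) and Grin1 (6.57, 6.87 and 6.999), and 3 of the 4 shared ones ranked lower: the scaffolds Homer1 (-57.6) and Shank3 (-56.0) and Dlg2 (-31.0). Of 20 GABA genes, 17 were in the PFC table alone, with the vesicular GABA transporter Slc32a1 at 7.08, 7.46 and 8.53, and Gabbr1 (-67.7) and Abat (-62.9), the enzyme that breaks down GABA, ranked lower among the 3 shared. Of 27 potassium channel genes, 21 were in the PFC table alone and 1, Kcnn4, the calcium-activated channel known from red cells, in the blood table alone. Of the 5 shared, 2 ranked lower, among them Kcna2 (-42.1).

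The Syn1 promoter is shown because this gene is a textbook target of the repressor REST, whose RE1 site keeps neuronal genes off outside neurons, and because Syn1 stood in the PFC table alone. Capitals mark TCAGCACC, searched on both strands, which 1.59% of the 27025 promoters held.
Syn1, chrX:20920869-20921168, minus strand, match at position -231: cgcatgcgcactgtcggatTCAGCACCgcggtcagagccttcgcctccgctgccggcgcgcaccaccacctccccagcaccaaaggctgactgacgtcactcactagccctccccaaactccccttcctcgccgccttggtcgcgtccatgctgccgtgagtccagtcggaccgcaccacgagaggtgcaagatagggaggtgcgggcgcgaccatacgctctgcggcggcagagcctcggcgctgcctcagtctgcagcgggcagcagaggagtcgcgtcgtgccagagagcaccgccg

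Markers of cortical neurons were listed in PFC and seldom in blood. Of 22 cortical layer and projection neuron genes, 16 were in the PFC table alone, including Slc17a7, the vesicular glutamate transporter, at 7.91, 9.20 and 9.41. Of the 6 shared, 1, Lmo4 (-69.9), ranked lower, beside 17.5% of all shared genes. Of 16 interneuron genes, 13 were in the PFC table alone, 2 in both and 1 in neither, with somatostatin, Sst, at 7.98, 8.09 and 8.36. The 2 shared interneuron genes met neither rule, Pvalb at -44.7 and Npy at 15.7 points. Camk2a, a kinase of excitatory neurons, was in the PFC table alone at 7.67, 8.37 and 8.58.

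Glial genes divided by cell type. Among all shared genes, 17.5% ranked lower and 15.3% higher. Of 20 astrocyte genes, 12 were in the PFC table alone and 8 were shared, with a median of -35.0 points. Of the 8, 3 ranked lower: Cpe (-71.8), Sparcl1 (-71.0) and Gfap (-40.3), the astrocyte filament. Cpe, a prohormone carboxypeptidase that neurons express too, had levels of 1.92, 2.68 and 3.58 in blood, against 9.88, 10.13 and 10.26 in PFC. Of 22 myelin genes, 16 were in the PFC table alone and 6 were shared, and 3 ranked lower, among them Trf (-62.9), transferrin, and Qdpr (-61.2). Microglia share much of their program with blood monocytes, and their list went both ways. Of 20 genes, 9 were in the PFC table alone, 10 in both and 1 in neither, and 3 ranked lower, among them Gpr34 (-43.8) and Cx3cr1 (-42.2), while 3 ranked higher, the signalling adaptor Tyrobp (66.6), Laptm5 (53.3) and Selplg (35.9). Of 19 endothelial and mural genes, 14 were in the PFC table alone, 4 in both and 1 in neither, and Pecam1 (64.3) and Esam (45.9), both also found on platelets, ranked higher in blood. Of 16 meningeal and choroid plexus genes, 13 were in the PFC table alone, 2 in neither and 1 in both, the water channel Aqp1 described above. The choroid plexus transcript Ttr ran from 3.59 through 6.44 to 11.78 over the 7 PFC libraries.

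By rank difference alone, genes outside the lists came to the front. Higher in blood, the first 10 were Gm6212, S1pr4, Gm5864, H2-K2, Gp1ba, 9130208D14Rik, Lars2, Gm29699, S100a8 and Agbl5, at 85.6 to 88.8 points. S1pr4, a sphingosine-1-phosphate receptor of lymphoid cells, had levels of 6.10, 6.33 and 7.14 in blood, against 1.28, 2.13 and 4.40 in PFC. Lars2, the mitochondrial leucyl-tRNA synthetase, had levels of 8.97, 10.54 and 11.30 in blood, against 3.44, 3.65 and 3.97 in PFC, and PFC library C1 held the lowest of its PFC levels. Lower in blood, the first 10 included Nptxr (-89.1), Magee1 (-87.1), Npcd (-85.4), Got1 (-84.2), Ldoc1l (-83.6), Atp1b2 (-83.3), Lrrtm2 and Pnmal2. Nptxr, the neuronal pentraxin receptor, had levels of 1.21, 1.84 and 2.99 in blood, against 8.60, 9.84 and 9.91 in PFC. Npcd overlaps the Nptxr locus and had the same blood values, so the pair counts as 1 measurement. Magee1, a MAGE family gene, had levels of 0.63, 2.34 and 3.03 in blood, against 10.29, 10.47 and 10.59 in PFC.

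Among genes of the PFC table alone, the first by level were Cdk5r2 (10.70, 11.31 and 11.56), an activator of the kinase CDK5, then Elfn2, Ndn, Kcnf1, Gm996, Slitrk1 and Ddn, the postsynaptic protein dendrin. Among genes of the blood table alone they were Pf4, Ppbp, Igkc, Isg20, Rec114, Tubb1, Hbq1b, Gp9, Slc4a1 and Hbq1a. Isg20, an interferon-induced exonuclease, lay at 7.87, 8.46 and 8.65. These orders follow deposited levels, which may carry gene length.

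**Figure D3:**
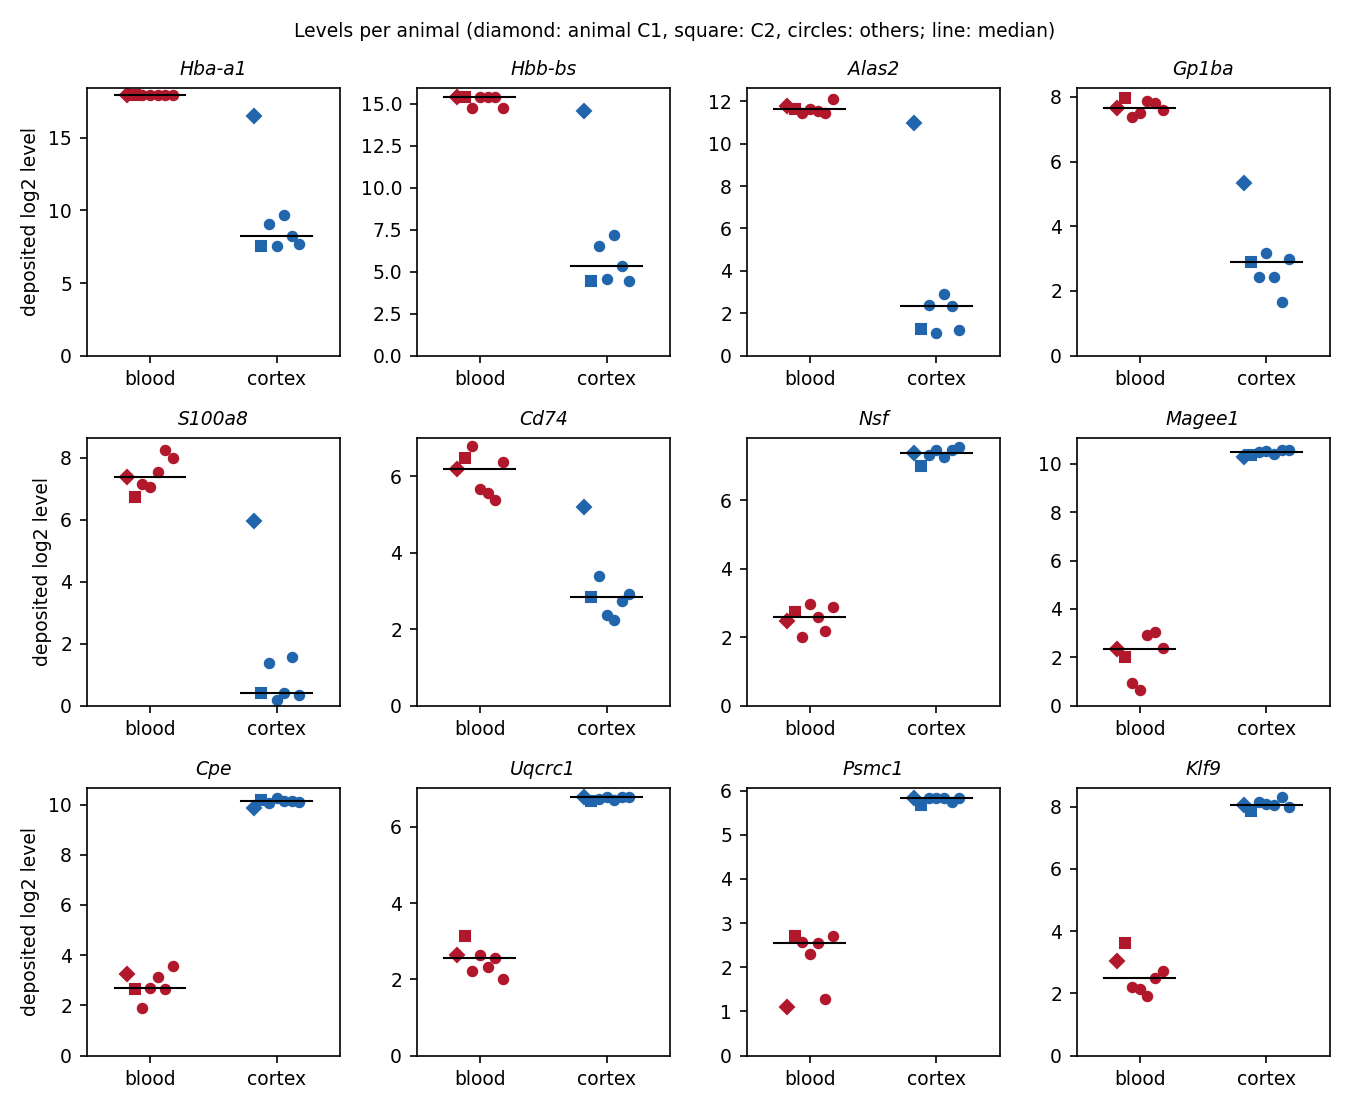
Deposited log2 level of 12 genes in each of 7 blood libraries (red, left) and 7 prefrontal cortex libraries (blue, right), with the median as a line; panels have their own axes and the tables were normalized apart, so heights compare animals within a tissue. The blue diamond is animal C1, which lies above the other cortex libraries for Hba-a1, Hbb-bs, Alas2, Gp1ba, S100a8 and Cd74 and close to them for Nsf, Magee1, Cpe, Uqcrc1, Psmc1 and Klf9.

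Housekeeping machines did not share a direction. Of 38 cytosolic ribosomal protein genes, all shared, 2 ranked higher in blood, Rpl27 (26.9) and Rplp0 (26.6), and 0 lower, with a median of 8.41 points. Without animals C1 and C2, 4 of the 38 ranked higher. The 2 of 38 are below the 15.3% of all shared genes that ranked higher. Rps18 differed by 38.2 points but was spread widely in PFC, where its ranks ran from 5.52 to 65.4, against 63.5 to 81.5 in blood. Pseudogenes of these genes are many and may take some of their reads.

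Respiratory chain and proteasome genes ranked low in blood. Of 41 nuclear genes of oxidative phosphorylation, 37 were shared and 4 were in the PFC table alone, and 24 of the 37 ranked lower and 0 higher, with a median of -42.6 points, where 17.5% of all shared genes ranked lower. Uqcrc1, a core subunit of complex III, had levels of 2.02, 2.55 and 3.14 in blood, against 6.67, 6.78 and 6.79 in PFC, and stood at -72.9 ± 10.7 points (SD, 7 animals). Sdhb of complex II stood at -67.7 and Cyc1, cytochrome c1, at -64.9 points. Of the genes that met neither rule, 3 chosen after their values were seen were Cox8a at -2.1, Cox6c at -3.6 and Ndufa1 at 13.4 points, each a subunit of complex IV or complex I.

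Of 32 proteasome genes, 27 were shared, 3 were in the PFC table alone and 2 in the blood table alone. Of the 27, 20 ranked lower in blood and 0 higher, with a median of -39.3 points, where 17.5% of all shared genes ranked lower. Psmc1, an ATPase of the cap, had levels of 1.10, 2.54 and 2.71 in blood, against 5.66, 5.83 and 5.83 in PFC, and stood at -65.4 points, and Psmd2, a scaffold of the cap, stood at -61.8. The 2 genes of the blood table alone were Psmb8 (2.67, 3.16 and 3.64) and Psmb9 (2.11, 3.26 and 3.71), the interferon-inducible catalytic subunits of the immunoproteasome. Psme1 and Psme2, the subunits of its activator, had positive differences of 16.9 and 10.7 points and met neither rule.

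Chaperone genes were called lower alone, and glycolysis genes in both directions. Of 24 chaperone genes, 23 were shared and 1 was in the PFC table alone. Of the 23, 13 ranked lower and 0 higher, with a median of -33.1 points, where 17.5% of all shared genes ranked lower. Hsph1, a nucleotide exchange factor of HSP70, had levels of 1.64, 2.89 and 3.27 in blood, against 6.13, 6.50 and 6.74 in PFC, and stood at -61.8 points, and Hspa1a, an inducible HSP70, stood at -60.7. Of 24 glycolysis genes, 16 were shared, 6 were in the PFC table alone and 2 in neither. Of the 16, 5 ranked lower, among them Pfkp (-61.0) and Gapdh (-37.8), and 3 higher, with a median of -21.8 points. The shares of all shared genes were 17.5% lower and 15.3% higher. In the UCMS animals, 9 of the 16 ranked lower in blood and 2 higher, with a median of -31.8 points. Bpgm (32.2), which makes the 2,3-bisphosphoglycerate of red cells, and the monocarboxylate transporters Slc16a3 (40.9) and Slc16a1 (30.1) ranked higher. Got1, an aspartate aminotransferase outside these lists, had levels of 1.49, 1.70 and 3.09 in blood, against 7.39, 7.49 and 7.62 in PFC.

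**Figure D4:**
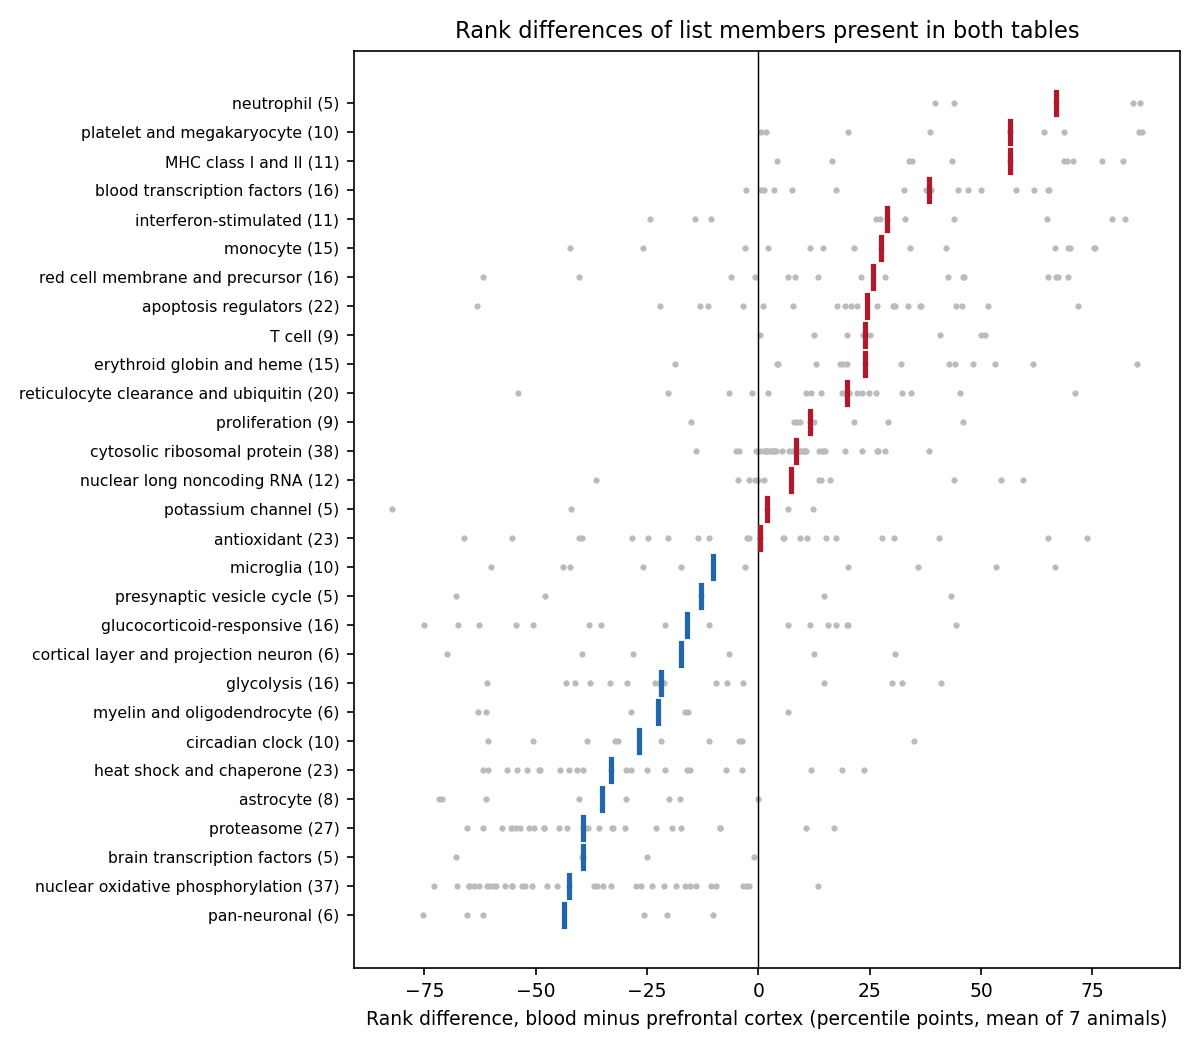
Rank difference, blood minus prefrontal cortex, in percentile points for each list member present in both tables (grey points; number in brackets) with the list median (red above 0, blue below 0), for the 29 lists with at least 5 shared members. Neutrophil and platelet medians lie highest at 66.8 and 56.5, and pan-neuronal and oxidative phosphorylation medians lowest at -43.8 and -42.6; members of most lists spread over both sides of 0.

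Apoptosis regulators were a subject of the series. Of 31 such genes, 22 were shared, 2 were in the blood table alone, 3 in the PFC table alone and 4 in neither. Of the 22, 9 ranked higher in blood and 1 lower, with a median of 24.4 points, where 15.3% of all shared genes ranked higher. In the UCMS animals, 5 of the 22 ranked higher in blood and 1 lower, with a median of 20.1 points. Casp2, an initiator caspase, had levels of 4.12, 4.82 and 5.25 in blood, against 3.31, 3.52 and 3.75 in PFC, and ranked 71.8 points higher. Bak1, which opens the outer mitochondrial membrane, ranked 51.5, Birc3 45.8, Apaf1, the scaffold of the apoptosome, 44.3, Bid 36.4 and the caspase inhibitor Xiap 33.5 points higher. Death-promoting and protective members were thus both among those that ranked higher. The protective Bcl2l2 had levels of 1.49, 2.72 and 3.43 in blood, against 5.94, 6.07 and 6.42 in PFC, and stood at -63.1 points. Bcl2l1, which encodes BCL-XL, a survival factor of red cell precursors and platelets, had levels of 8.003, 8.66 and 8.95 in blood, against 5.56, 5.80 and 6.07 in PFC. Its rank difference of 22.1 points fell short of the rule while its centred level was 4.07 higher in blood. Bad and Hrk, a pair of death-promoting BH3 genes, were in the PFC table alone, and Bcl2a1b and Bcl2a1d, survival genes of white cells, in the blood table alone.

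Antioxidant genes were called about as often as all shared genes, of which 15.3% ranked higher and 17.5% lower. Of 26, 23 were shared and 3 were in the PFC table alone, with 4 higher, 5 lower and a median of 0.46 points, which was below 0 both on centred levels (-0.0179) and when ranked within the own table (-4.98). Cat, catalase, had levels of 5.56, 6.204 and 6.43 in blood, against 3.80, 4.01 and 4.83 in PFC, and ranked 65.1 points higher. Blvrb, a flavin and biliverdin reductase of red cells, had levels of 4.73, 5.57 and 5.63 in blood, against 3.29, 3.68 and 4.37 in PFC, and ranked 73.9 points higher. The glutathione transferases Gstm1 (-66.2), Gstp1 (-55.4) and Gstm5 (-39.6) and the superoxide dismutases Sod2 (-40.4) and Sod1 (-28.4) ranked lower.

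Glucocorticoid-responsive genes, which answer the hormone of the stress axis, were called in both directions. Of 30, 16 were shared, 1, Lcn2, was in the blood table alone, 12 were in the PFC table alone and 1 in neither. Of the 16, 6 ranked lower in blood and 1 higher, with a median of -16.1 points, where 17.5% of all shared genes ranked lower and 15.3% higher. Klf9, a direct target of the glucocorticoid receptor, had levels of 1.91, 2.49 and 3.62 in blood, against 7.86, 8.06 and 8.30 in PFC, and stood at -75.2 points. Mt1, a metallothionein, was uneven in blood at 0.54, 1.17 and 5.40, against 7.67, 8.05 and 8.29 in PFC. Zbtb16 (-54.5), Fkbp4 (-50.7), Ddit4 (-37.9) and Sgk1 (-35.3) ranked lower and Cebpd (44.3) ranked higher. The receptor gene Nr3c1 had levels of 3.66, 3.97 and 4.27 in blood, against 5.68, 5.93 and 6.25 in PFC, a rank difference of -11.2 points that met neither rule. The mineralocorticoid receptor Nr3c2 was in the PFC table alone at 4.12, 4.39 and 4.87. Fkbp5, which binds HSP90 in the receptor complex, differed by 11.6 points and ranged widely in blood, from 1.66 to 3.95.

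Of 24 circadian clock genes, 10 were shared and 14 were in the PFC table alone. The genes of the PFC table alone included Per1 (5.04, 5.41 and 5.51), Per2, Per3, Arntl, Nr1d1 (5.88, 6.21 and 6.35) and Dbp (6.63, 6.73 and 6.96), which are core or output genes of the clock. Of the 10 shared, 4 ranked lower in blood, the repressor Cry2 (-60.6), the kinase Csnk1e (-50.6), Nfil3 (-32.1) and Nr1d2 (-31.5), and 1, Clock (35.0), ranked higher. The shares of all shared genes were 17.5% lower and 15.3% higher. Clock had levels of 3.63, 4.25 and 4.73 in blood, against 4.16, 4.37 and 4.54 in PFC. With 1 collection window, no rhythm can be read from these values.

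Protein-coding genes and pseudogenes made up most of the top of both tissues, beside a few abundant noncoding RNAs. Of the 100 genes with the highest mean rank in each tissue, 28 were the same, among them the signal recognition particle RNAs Rn7s1 and Rn7s2, Rn7sk, Malat1, Rpph1 and Rmrp and the protein-coding Fth1, Actb and Jund. By RefSeq type, 42 of the 100 in blood and 32 of the 100 in PFC were protein-coding, and 41 in blood and 44 in PFC were pseudogenes, which can take reads of their parent genes. The 5 shared genes of near-equal rank at the top were Gm3379, Rn7s1, Rn7s2, LOC101056014 and H3f3b, a histone variant gene. Of 21 long noncoding RNA genes, 12 were shared and 9 were in the PFC table alone. Of the 12, 1 ranked higher in blood, Ftx (54.6), and 1 lower, Snhg8 (-36.5), beside 15.3% and 17.5% of all shared genes. Bc1, a small dendritic RNA of rodent neurons, had levels of 1.65, 3.23 and 4.21 in blood, against 11.85, 12.32 and 12.75 in PFC, and stood at -67.6 points. Cdr1 had levels of 0.92, 2.43 and 4.67 in blood, against 12.91, 14.15 and 14.57 in PFC, and its locus also gives an antisense circular RNA that cannot be told apart here.

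Some families of the membrane skeleton had members high in one tissue and members high in the other. Further members met neither rule, among them an ankyrin and a tropomodulin listed in both tables. The difference between 2 genes within a library, set against the same difference in the other tissue, removes gene length and any constant offset between the tables. The brain alpha-spectrin Sptan1 had levels of 1.93, 2.62 and 2.87 in blood, against 7.71, 8.05 and 8.21 in PFC, and stood at -79.9 points. The red cell beta-spectrin Sptb stood at 1.14 ± 0.38 above Sptan1 in blood and at -2.94 ± 0.11 in PFC (log2, SD, n = 7), a shift of 4.09 ± 0.39 in the same direction in 7 of 7 animals. Sptb itself had a rank difference of -6.26 points and met neither rule. Ank2, a brain ankyrin, was in the PFC table alone. Tmod3, the widespread tropomodulin, ranked 55.4 points higher and the neuronal Tmod2 stood at -64.4, and their difference shifted by 5.41 ± 1.26 (SD, n = 7). Tpm4, a tropomyosin of platelets, had levels of 4.81, 5.13 and 5.49 in blood, against 3.33, 3.64 and 4.58 in PFC, and ranked 71.6 points higher.

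Tubulins showed an exchange as well. Tubb1 was in the blood table alone, whereas the neuronal Tubb3 (7.01, 7.19 and 7.26) and Tubb4a (8.42, 8.56 and 8.72) were in the PFC table alone. Tubb2b stood 1.94 ± 0.22 above Tubb2a in blood and at -1.90 ± 0.12 relative to it in PFC (log2, SD, n = 7), although the pair is near-identical in sequence and may share reads. The shift was 3.84 ± 0.13 and had the same sign in 7 of 7 animals. Tubb2b differed by 14.6 and Tubb2a by -7.63 rank points, so neither met the rule.

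Balances within other families differed between the tissues too. Among small GTPases, Rac2 (74.6) and Rhoh (64.1), both known from blood cells, ranked higher, while the widespread Rac1, Rhoa and Cdc42 differed by 5.54, 2.13 and 1.10 points and met neither rule. Among protein kinase C genes, Prkcq (49.5), the T cell isoform, and Prkch (46.4) ranked higher, and Prkcb stood at -60.6. The shift of Bpgm against Pgam1, which carries out the related glycolytic step, was 7.51 ± 0.86, and that of the peroxiredoxin Prdx2, abundant in red cells, against Prdx1 was 3.45 ± 0.91. Ftl1, the ferritin light chain, shifted by 3.93 ± 1.05 against the heavy chain Fth1. Each of these 3 shifts had the same sign in 7 of 7 animals.

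**Figure D5:**
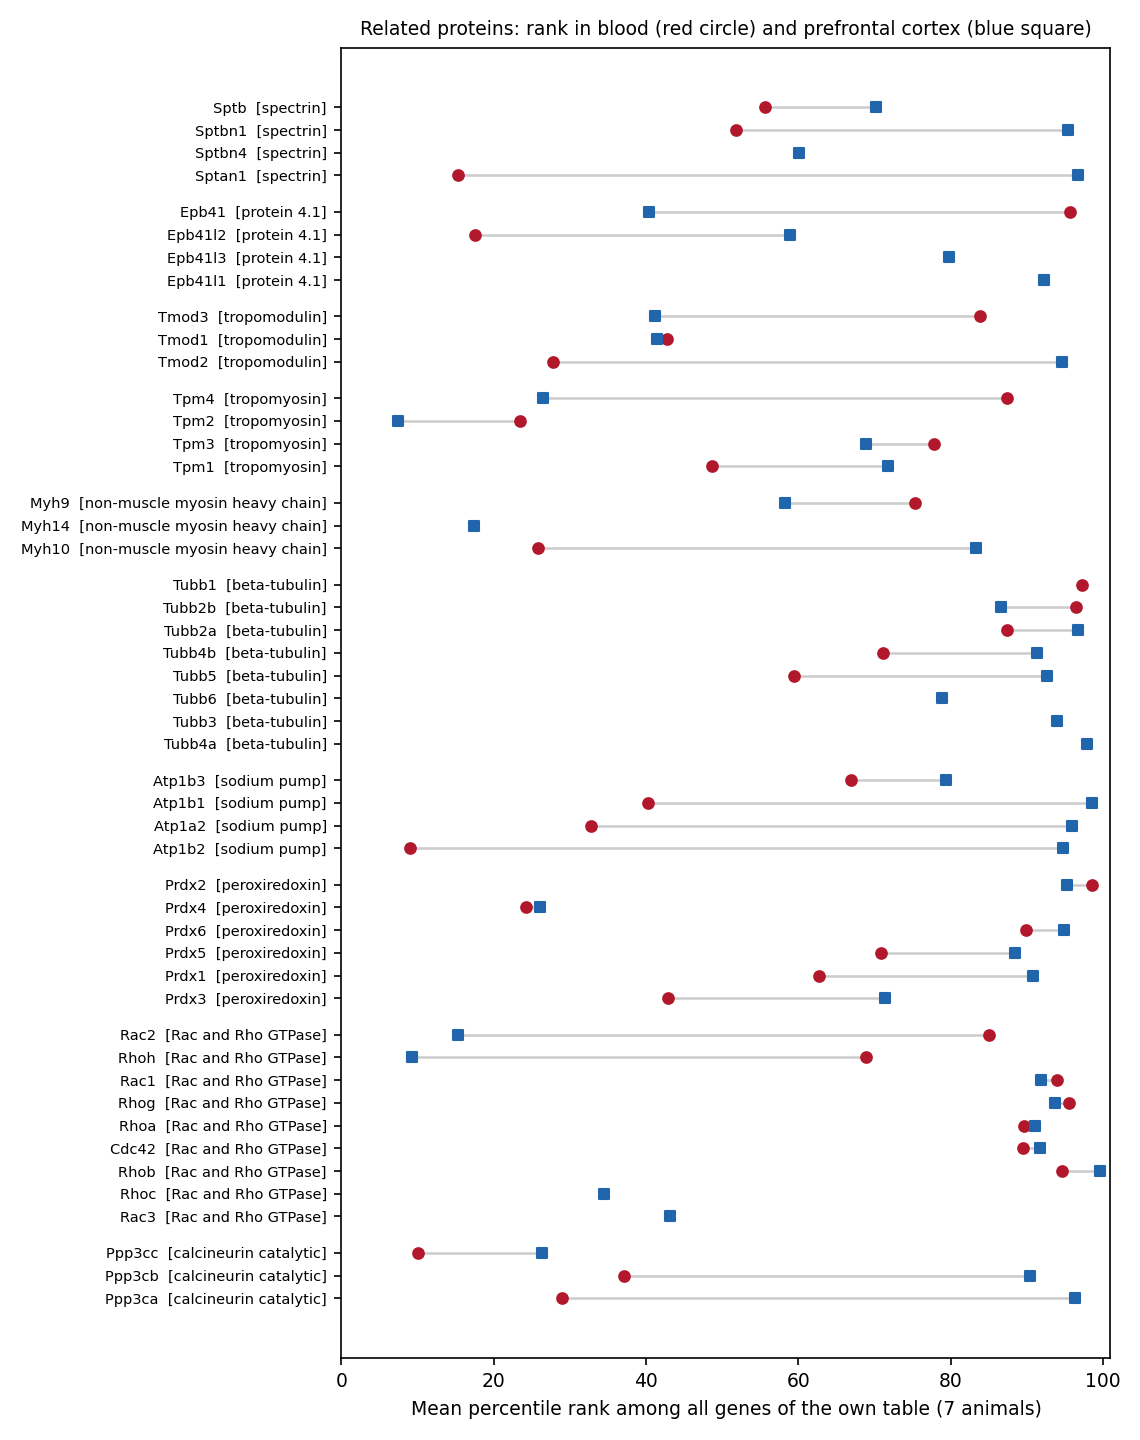
Mean percentile rank of each family member among all genes of its own table (horizontal axis), in blood (red circles) and prefrontal cortex (blue squares), 7 animals each; a missing marker means that the table does not list the gene, and some members are not drawn. Tubb1 has a blood marker alone and Tubb3 a prefrontal cortex marker alone, while for Sptan1 and Tmod2 the cortex marker lies far to the right of the blood marker and for Tmod3 far to the left.

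Gene span was looked at because ribosome-depleted libraries keep unspliced RNA. A RefSeq span was found for 97.9% of the genes that ranked higher in blood and 98.2% of those that ranked lower. The median span was 29498 bases for genes that ranked higher in blood, 19183 bases for those that ranked lower and 21971 bases for those called in neither direction. Over protein-coding genes split into 5 equal bins by span, the median rank difference was -2.31, -0.45, 1.40, 6.95 and 4.68 points from the shortest bin to the longest. Pseudogenes were 1.41% of the genes that ranked higher and 6.87% of those that ranked lower, beside 6.39% of all shared genes and 7.39% of those called in neither direction. The share among lower genes was thus near that of all shared genes. Some genes were not separate measurements: 44 shared genes (0.545%) had blood values identical to those of another gene in all 7 libraries. The largest such set was 22 gamma-protocadherin genes, which share their last exons, at one blood median of 3.30 each, against PFC medians of 7.38 to 8.63, and all 22 counted as lower in blood. Counting each set of identical blood values once leaves 1227 higher and 1384 lower.

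Whether an animal that was high in blood was also high in PFC was tested for each of 8065 genes with spread in both tissues, by Pearson's r over 7 animals with an exact two-sided permutation of the animals. The unadjusted p was under 0.05 for 194 genes (2.41%) with positive r and 270 (3.35%) with negative r, and 0 genes passed after Benjamini-Hochberg adjustment over all 8065, where the smallest adjusted p was 0.727. By Spearman's rho, 384 genes were under 0.05 unadjusted and 0 after adjustment. The median r was -0.0271, and 47.7% of genes had r above 0. The smallest unadjusted p was 0.000198 for Upf2, a factor of nonsense-mediated decay (r = 0.93, rho = 1, permutation p of rho 0.000397, adjusted p = 0.727, r = 0.87 without the 2 animals farthest from the PFC median), and these are the smallest values that the permutations of 7 animals can give. Without animal C2, 308 genes in all were under 0.05 unadjusted, against 464 with it.

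Of 26 shared glucocorticoid-responsive and clock genes, 2 had an unadjusted permutation p under 0.05, and 11 had r above 0. Over all 8065 genes, 2.41% had such a p with positive r and 3.35% with negative r, and 47.7% had r above 0. Sgk1, a kinase that glucocorticoids induce, had r = 0.91 (exact permutation p = 0.00655, adjusted p = 0.789) and rho = 0.93 (exact permutation p = 0.00675, adjusted p = 0.938) over 7 animals, and r = 0.84 without the 2 animals farthest from the PFC median. Dusp1, a phosphatase that glucocorticoids induce, had r = -0.86 (exact permutation p = 0.019, adjusted p = 0.815) and rho = -0.71 (exact permutation p = 0.0881, adjusted p = 0.979), and r = -0.62 without the 2 farthest animals. Neither passed the adjustment, which so few animals could hardly let any gene pass. Without animal C1, 463 genes in all were under 0.05 unadjusted and 0 after adjustment.

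The same rule within the brain gives a rough reference for these differences. Percentiles there run over more genes than the 8067 shared with blood, so their points are not strictly on the same scale. Ranks also varied more among animals in blood than in PFC. Hippocampus against PFC of the same 7 animals gave 120 genes higher (0.785%) and 112 lower (0.733%) of 15279 shared, with a median absolute rank difference of 2.60 points. Hypothalamus against PFC gave 153 higher and 327 lower (2.14%) of 15278, with a median absolute difference of 4.67 points. These comparisons share the PFC libraries. In 8 UCMS animals with both tissues, other mice than the 7, blood against PFC gave 1289 genes higher (16.0%) and 1419 lower (17.6%). Of the genes that ranked higher in blood, 938 did so in both sets of animals, which is 76.1% of the control list and 72.8% of the UCMS list. Of those that ranked lower, 1143 did so in both, 81.2% of the control list and 80.5% of the UCMS list, and 0 genes were called in opposite directions.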

How the data were processed

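Strand-specific, ribosome-depleted RNA-seq was used at the level of the authors' processed tables, 1 per tissue, with genes by Entrez ID. The deposited values have no stated unit and were read as log2 levels from their range and shape. In each table, the sorted values of all its libraries, unstressed and UCMS, differ by at most 0.02 for 97.0% (blood) and 99.0% (PFC) of positions, as quantile normalization would leave them. The submitters' processing notes name the genome GRCm38.p4. What aligned and counted the reads, and what filtered the genes, is not given in the sources used here, nor is whether counting used the strand. All columns of the 4 tables matched a sample (0 did not). Depth is unknown, so no counting interval is given, and the number of animals limits the precision.

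Samples were grouped and paired by the titles: libraries that end in the same animal code come from the same mouse, while the running numbers of the 2 tissues do not match throughout. Samples with the same code did not deviate together beyond others: own correlation of deviations was the best in 1 of 7 animals. The rank rule carries no test, and the correlation test and the rule were tested on simulated data. Python 3.11.15, pandas 2.3.3, numpy 2.4.6 and scipy 1.17.1 were used. Named genes were the 10 largest rank differences each way, the 10 highest genes of each table alone, the largest differences within each list, family members, the 5 most equal abundant genes and the smallest correlation p; others in the text are list members or were chosen after their values were seen. The 36 lists and 28 families, like the members, were chosen with earlier results of these data known. Alternatives were another scale, gene universe, low filter, size minimum, pairing, animals and brain region. Some genes are not reported here.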

Additional observations from a re-analysis of the deposited data

Results flagged for a closer look

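In 40 of 194 sets of 7 values, 1 library lay apart from the other 6 by more than Dixon's 95% critical value. Chance alone exceeds that value in about 1 in 20 independent sets. The sets used were the lists with at least 5 shared members and selected genes, many of them blood transcripts, so they overlap. The 40 therefore cannot be set against 1 in 20. PFC library C1 accounted for 29 of them, PFC library C2 for 6 and blood libraries for 5.

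PFC library C1 had the highest PFC median rank of the erythroid globin and heme list (93.1, next 45.4), the red cell membrane list (70.0, next 44.2), the reticulocyte list (84.7, next 72.8), the platelet list (81.3, next 26.7), the neutrophil list (43.2, next 0.626), the monocyte list (42.8, next 16.0), the MHC list (31.7, next 12.4) and the interferon-stimulated list (47.2, next 11.4). It also had the highest PFC level of Hba-a1 (16.52), Hbb-bs (14.57), Alas2 (10.99), Slc25a37 (8.36), Epb41 (6.36), Bpgm (7.89), Ube2l6 (11.59) and Tal1 (5.54) among red cell genes. Among platelet and white cell genes it had the highest PFC level of Gp1ba (5.34), Gp5 (5.81), S100a8 (5.94), S100a9 (6.85), Lyz2 (6.71), Cd74 (5.20), H2-K1 (4.26), Tyrobp (4.54) and Rsad2 (10.07). It was the highest for Tpm4 (4.58) and Prdx2 (7.98) and the lowest for Rn7sk (15.61) and Malat1 (13.65). Rn7sk held 16.52 in every other PFC library, the level that Hba-a1 held in C1. Levels follow a gene's position in its library, so a lower level there need not mean less of that RNA.

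PFC library C2 had the highest PFC median rank of the proliferation list (24.3, next 11.0), and the lowest of the pan-neuronal list (89.8, next 91.6) and of the brain transcription factor list (80.7, next 88.2). It had the lowest PFC level of Slc17a7 (7.91), Syp (8.12) and Sptb (4.72). Among blood libraries, C4 was lowest for Isg20 (7.87) and Cat (5.56), C8 was lowest for Rn7sk (13.17), C2 was highest for Tubb2b (7.64) and C7 was highest for Prdx1 (5.87).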

How the results depend on the processing

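On centred log2 levels, with a minimum of 1.5 in place of 25 points, 746 genes ranked higher in blood and 1041 lower. These included 611 of the 1233 reported higher genes (49.6%) and 825 of the 1408 lower ones (58.6%). Clock and Sgk1 were among the named genes not called on that scale. The count ranking higher was 695 when ranked among all genes of the own table. At 50 percentile points, 397 ranked higher and 478 lower, by the construction of the stricter rule. Leaving out each animal in turn gave 1259 to 1440 higher and 1428 to 1509 lower, and 308 to 493 genes with an unadjusted correlation p under 0.05. With the replicate block (the same direction in 7 of 7 animals in place of no overlap), 1389 ranked higher and 1512 lower. The other alternatives run for both counts (the low filter, 10 points, the C3 cortex library, UCMS animals, hippocampus, hypothalamus, and no C1 and C2, chosen after seeing the data) stayed within 1.5 times the reported count. Of 29 lists with at least 5 shared members, 16 had a median above 0. The antioxidant median turned to -0.0179 on centred levels and -4.98 when ranked within the own table, and the potassium channel median to -0.336 within the own table. The causes were not tested. List medians moved by more than 1 SD over animals in 6 of the 29 lists in UCMS animals (monocyte to 7.89, presynaptic to -17.1, myelin to -33.2, apoptosis to 20.1, glycolysis to -31.8 and potassium channel to 0.70), in 6 within the own table beside the 2 that changed sign, and in 0 without C1 or without C1 and C2. That SD includes C1 and C2 themselves, so leaving them out could hardly move a median past it. The 0 therefore does not show that these animals had no effect. In UCMS animals the count higher was 7 for the red cell membrane list, 4 for ribosomal proteins, 3 for long noncoding RNAs and 5 for apoptosis, and the count lower was 6 for astrocytes and 9 for glycolysis. With depth unknown, the error of low levels cannot be given.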
